A study of Homo sapiens with 4 samples.

Results

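Mutually exclusive exons are neighbouring exons of which a transcript normally carries one and not the other. Many such pairs arose by duplication of an exon, so both copies code for the same stretch of the protein and often have the same length. A swap between exons of equal length keeps the reading frame whatever that length is, and it changes a segment of the protein without shortening it, as in pyruvate kinase, tropomyosins and the voltage-gated sodium channels. RBFOX1 and RBFOX2 are splicing factors that bind UGCAUG in introns; they are known to favour an exon when bound after it and to oppose it when bound before it.

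Here the pairs whose 2 exons have exactly the same length were taken from the table of mutually exclusive exon events of U87MG cells, a glioblastoma line. Of 27459 events, 384 had exons of equal length, and keeping for each pair the event with the most counts left 281 pairs out of 21604, in 233 genes. The 281 pairs hold 506 distinct exons, because 17 genes contributed more than 1 pair and 29 exons stood in several. Cells received, with a lipid reagent, 2.5 µM of either RBFOXi, a decoy RNA oligonucleotide carrying RBFOX1/2 motifs, or SCRM, a scrambled oligonucleotide. There were 2 libraries of each group. The RBFOXi oligonucleotide of replicate 1 carried a Cy5 label and that of replicate 2 did not. The study's methods describe the pair of libraries of each group as biological replicates made independently. All 4 libraries share the line, the transfection and the dose, and a tumour cell line is not brain tissue.

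The exon nearer the 5′ end of the transcript is called the 5′ exon and the other the 3′ exon. PSI is the share of a pair's counts that fell on the 5′ exon, from 0 to 1, and delta PSI is the RBFOXi mean of PSI less the SCRM mean. The members cannot show which exon the inclusion counts describe, since their exons are equally long. In events with unequal exons, the form of the inclusion counts was compared with the other form in effective length. Its effective length was the longer where the 5′ exon was longer, and the shorter where the 5′ exon was shorter. This held in 13878 of 13931 events on the plus strand and 13093 of 13144 on the minus strand. The reverse held in 0 events, and the rest had equal effective lengths.

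The exons of 6 pairs on which the results turn are printed here from GRCh37, 5′ to 3′, so that the likeness of the copies can be seen. Capitals mark the positions at which the 2 exons of a pair differ. TPM1 codes for an actin-binding tropomyosin, and its exons of 76 nt differed at 33 positions.
TPM1 5′ exon, chr15:63353397-63353472, plus strand: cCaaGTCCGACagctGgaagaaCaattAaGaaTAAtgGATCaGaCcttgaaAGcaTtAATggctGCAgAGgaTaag
TPM1 3′ exon, chr15:63353912-63353987, plus strand: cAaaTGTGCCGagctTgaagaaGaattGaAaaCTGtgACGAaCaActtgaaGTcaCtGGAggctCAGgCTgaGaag

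DNM2 codes for dynamin 2, a GTPase that cuts vesicles from membranes, and its exons of 139 nt differed at 42 positions.
DNM2 5′ exon, chr19:10906737-10906875, plus strand: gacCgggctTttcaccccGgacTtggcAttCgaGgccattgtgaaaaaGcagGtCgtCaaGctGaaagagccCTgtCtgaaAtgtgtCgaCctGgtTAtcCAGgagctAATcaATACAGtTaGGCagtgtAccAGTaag
DNM2 3′ exon, chr19:10908056-10908194, plus strand: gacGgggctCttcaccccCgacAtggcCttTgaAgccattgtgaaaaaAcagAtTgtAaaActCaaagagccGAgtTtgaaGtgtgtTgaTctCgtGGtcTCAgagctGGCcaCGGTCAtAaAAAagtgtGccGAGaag

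KIAA1468 is now named RELCH, and its exons of 83 nt differed at 30 positions.
KIAA1468 5′ exon, chr18:59947007-59947089, plus strand: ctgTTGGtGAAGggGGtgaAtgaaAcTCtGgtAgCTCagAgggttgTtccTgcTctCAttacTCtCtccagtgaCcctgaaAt
KIAA1468 3′ exon, chr18:59947593-59947675, plus strand: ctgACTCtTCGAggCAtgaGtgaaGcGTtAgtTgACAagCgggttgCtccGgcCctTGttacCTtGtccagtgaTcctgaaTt

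SNAP25 codes for a SNARE protein of membrane fusion, and its exons of 118 nt, known as the early and the adult form, differed at 31 positions.
SNAP25 5′ exon, chr20:10273530-10273647, plus strand: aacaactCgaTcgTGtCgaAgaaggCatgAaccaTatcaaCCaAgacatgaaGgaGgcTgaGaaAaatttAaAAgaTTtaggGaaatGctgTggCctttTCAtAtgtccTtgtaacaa
SNAP25 3′ exon, chr20:10273809-10273926, plus strand: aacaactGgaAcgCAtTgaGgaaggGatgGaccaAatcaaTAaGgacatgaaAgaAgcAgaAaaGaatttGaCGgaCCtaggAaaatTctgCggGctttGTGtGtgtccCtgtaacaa

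PKM codes for pyruvate kinase, and its exons of 167 nt give the muscle form (5′ exon) and the form of most proliferating cells (3′ exon). They differed at 62 positions and are shown as the deepest of the classical pairs.
PKM 5′ exon, chr15:72495363-72495529, minus strand: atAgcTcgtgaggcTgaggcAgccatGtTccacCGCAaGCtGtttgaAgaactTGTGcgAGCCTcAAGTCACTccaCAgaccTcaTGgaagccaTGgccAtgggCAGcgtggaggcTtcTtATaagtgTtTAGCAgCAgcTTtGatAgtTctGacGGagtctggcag
PKM 3′ exon, chr15:72494795-72494961, minus strand: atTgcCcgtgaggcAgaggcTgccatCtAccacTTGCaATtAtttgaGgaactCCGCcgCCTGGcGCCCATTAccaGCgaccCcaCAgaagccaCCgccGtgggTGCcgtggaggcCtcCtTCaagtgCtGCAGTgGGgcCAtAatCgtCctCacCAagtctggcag

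CTTN codes for cortactin, a protein of branched actin whose actin-binding repeats are each coded by an exon. The last pair of its row of 111 nt exons, exons c and d, differed at 38 positions.
CTTN exon c, chr11:70266506-70266616, plus strand: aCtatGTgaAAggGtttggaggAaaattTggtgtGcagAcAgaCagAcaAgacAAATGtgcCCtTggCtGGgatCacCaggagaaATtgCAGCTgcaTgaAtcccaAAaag
CTTN exon d, chr11:70267576-70267686, plus strand: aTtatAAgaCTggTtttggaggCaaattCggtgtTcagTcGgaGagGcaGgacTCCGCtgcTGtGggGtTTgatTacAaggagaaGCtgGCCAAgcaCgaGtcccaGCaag

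The 281 pairs were between 42 and 686 nt long with a median of 112 nt, and 188 of them (66.9%) had a length divisible by 3. GENCODE 44 models separated them into unlike sets. In 34 pairs, from 34 genes, no transcript held both exons, and these are called exclusive. In 243 pairs at least 1 transcript held both, and these are called joined. In 4 pairs at least 1 exon was not annotated. Coding sequence covered both exons in 260 of the 281.

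The exons of exclusive pairs were the more alike. Their median identity, counted base by base without gaps, was 65.1% (range 16.4% to 99.4%), and 31 of 34 had at least 50%. The median of the joined pairs was 33.3%, and 74 of 243 reached 50%. The stretch between the exons had a median of 208.5 nt in the exclusive pairs and 3053 nt in the joined ones. It was under 100 nt in 11 of 34 (32.4%) against 4 of 243 (1.65%). Where the exons are not neighbours, as in some joined pairs of CTTN, this stretch also spans other exons and is not a single intron. Lengths that do not divide by 3, for which skipping or joining the exons would shift the frame, occurred in 21 of 34 exclusive pairs (61.8%) and 69 of 243 joined pairs (28.4%). The classical examples are in the exclusive set: PKM, SNAP25, SCN2A, CALU (calumenin of the secretory pathway), DNM1 (the neuronal dynamin), MAPK8, MAPK9, MAPK10 and MAPK14 (stress kinases), P4HA1 (a collagen prolyl hydroxylase), RAB6A (a Golgi GTPase), EYA4, GALNT7, ACP1 and TPM2. DNM2 and KIAA1468 were classed as joined because a single model of each holds both exons.

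Many joined pairs with alike exons were rows of repeats that code for repeated protein domains. TNC, tenascin C of the extracellular matrix, gave 19 pairs from 7 exons of 273 nt that code for fibronectin type III domains. The NLR genes gave 14 pairs, the latent TGF-beta binding proteins and fibrillin 9, the collagens 9 and CTTN 4. These families were read off the member list after it was made.

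How often the exons of a pair were truly alternatives was visible in the table of skipped exons, whose skipping counts come from junction reads alone. For 205 pairs, 202 of them joined and 2 exclusive, that table held both the event that reads the junction past the 5′ exon and the event that reads the junction past the 3′ exon. The counts of these 2 junctions together came to a median of 0.68 per 100 counts of the pair, and they were under 10 in 73 of the 205 pairs. In contrast they came to 45.5 per 100 for SNAP25, 35.5 for CALU, 58.1 for U2AF1, a splicing factor that reads the 3′ splice site, and 31.9 for the 126 nt pair of TPM1. Counts on the body of an exon enter its form whether or not the other exon is in the same RNA, so a pair of exons that are both always used also has a PSI. In the SCRM libraries, the mean PSI lay between 0.4 and 0.6 in 104 of 229 tested joined pairs (45.4%) and in 5 of 27 tested exclusive pairs (18.5%). It lay under 0.1 or over 0.9 in 10 of the 27 exclusive pairs and 19 of the 229 joined ones. Where the 2 junctions had at least 50 counts, their split and the PSI fell on the same side of 0.5 in 39 of 52 pairs.

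**Figure D1:**
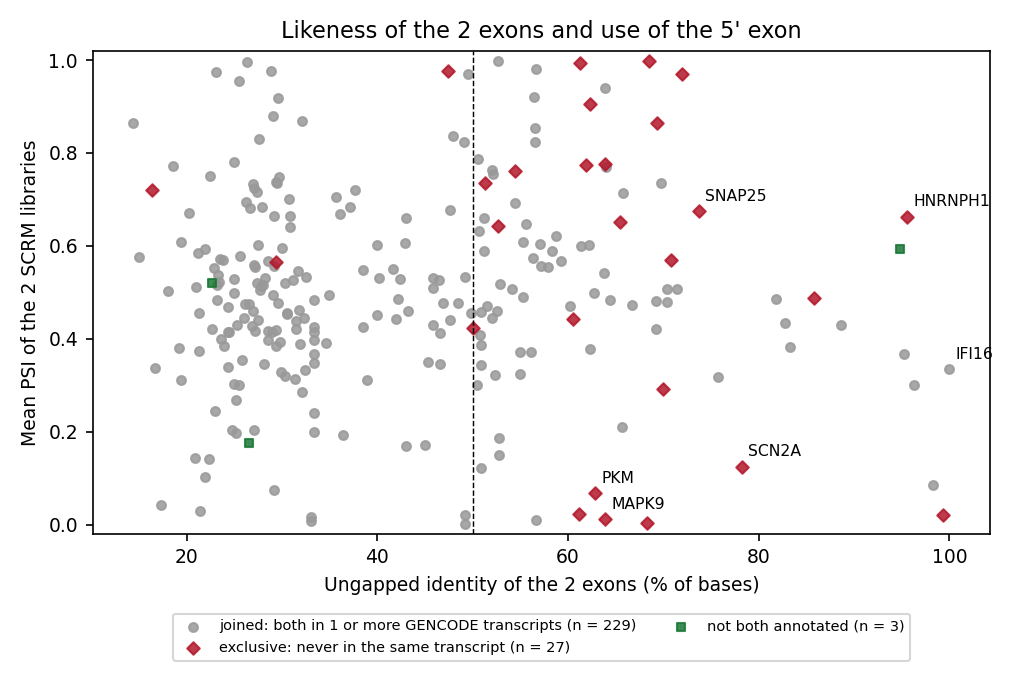
Ungapped identity of the 2 exons in percent of bases (x axis) against the mean PSI of the 2 SCRM libraries (y axis) for the 259 tested pairs, one point a pair, with colour and shape for whether GENCODE transcripts hold both exons. The 27 exclusive pairs lie mostly to the right of the dashed line at 50% identity and spread over the whole range of PSI, and the 229 joined pairs are denser between 0.4 and 0.6.

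Of the 281 pairs, 259 passed the filter on low counts, which left out pairs with under 5 counts in any library, a mean under 20 or under 4 counts of either form. Among the 22 that did not pass, 7 were exclusive. They include 3 of the 4 sodium channel pairs (SCN3A, SCN8A and SCN9A), which had few counts, and pairs such as PHKB and 1 of CACNA1C, which were deep but had nearly all counts on the 3′ exon. Tested pairs had a median of 561.5 counts per library, and the pairs together had between 731656 counts in SCRM replicate 1 and 1280251 in SCRM replicate 2. A delta PSI of at least 0.1 in size was found in 15 of the 50 tested pairs with fewer than 50 counts in some library, and in 7 of the 209 pairs with more.

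Markers of the line were read from the skipped exon table, where a gene without an event has no value and nothing is known of its level. The deepest skipped exon event of FN1, CD44, VIM and TNC held between 17378 and 185009 counts per library. Of the astrocyte genes, SLC1A3 held 214 to 1569 and GFAP and AQP4 had no such event, and of the neuron genes SYT1 held 8 to 91 while RBFOX3 and STMN2 had none. PTPRC, EPCAM and CDH1 also had none, and CD74, listed as an immune gene, held 20590 to 23453.

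One library stood apart from the other 3. Over all tested events of mutually exclusive exons the median log2 odds of the 5′ exon was -0.17 in SCRM replicate 1, against 0.04 in both RBFOXi libraries and 0.08 in SCRM replicate 2. Among the 259 tested pairs SCRM replicate 1 had the lowest PSI of the 4 libraries in 131 and the highest in 48. The median log2 change over all 26176 tested events was 0.09 with it and -0.05 without it. Delta PSI was above 0 in 163 of the 259 pairs (62.9%), and in 107 (41.3%) when SCRM replicate 1 was left out. Over all tested events these shares were 67.3% and 39.2%. For pairs whose delta PSI this library moved by much, the value without it is printed beside the first.

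The comparison of RBFOXi with SCRM asks which exon swaps depend on RBFOX1/2, which the decoy is meant to draw away. In bulk RNA a shift within each cell and a shift in which cells contribute RNA cannot be told apart. At an adjusted p under 0.05 in limma over all 26176 tested events, with a delta PSI of at least 0.1 in size, 0 of the 259 pairs were called, and the background was 0 of 26176 (0%). At an unadjusted p under 0.05 there were 14 pairs of 259 (5.41%), against 395 of 26176 events (1.51%). The 14 pairs come from 11 genes, and 3 of them share exons of CTTN. In 65 of 259 pairs (25.1%) the PSI values of the groups did not overlap, close to the background of 24.4%, with 40 higher and 25 lower in RBFOXi. The median size of delta PSI was 0.0235 in the pairs and 0.0192 over all tested events. The smallest adjusted p of a pair was 0.235. So no swap passed the threshold, and the pairs named next are described by their values.

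Alike exons held most of the 14. Of the 92 tested pairs with at least 50% identity, 10 had an unadjusted p under 0.05 (10.9%), against 4 of 167 pairs below 50% (2.4%). By annotation the count was 4 of 27 exclusive pairs and 10 of 229 joined pairs. These shares were not tested against each other, and pairs that share exons are not independent.

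**Figure D2:**
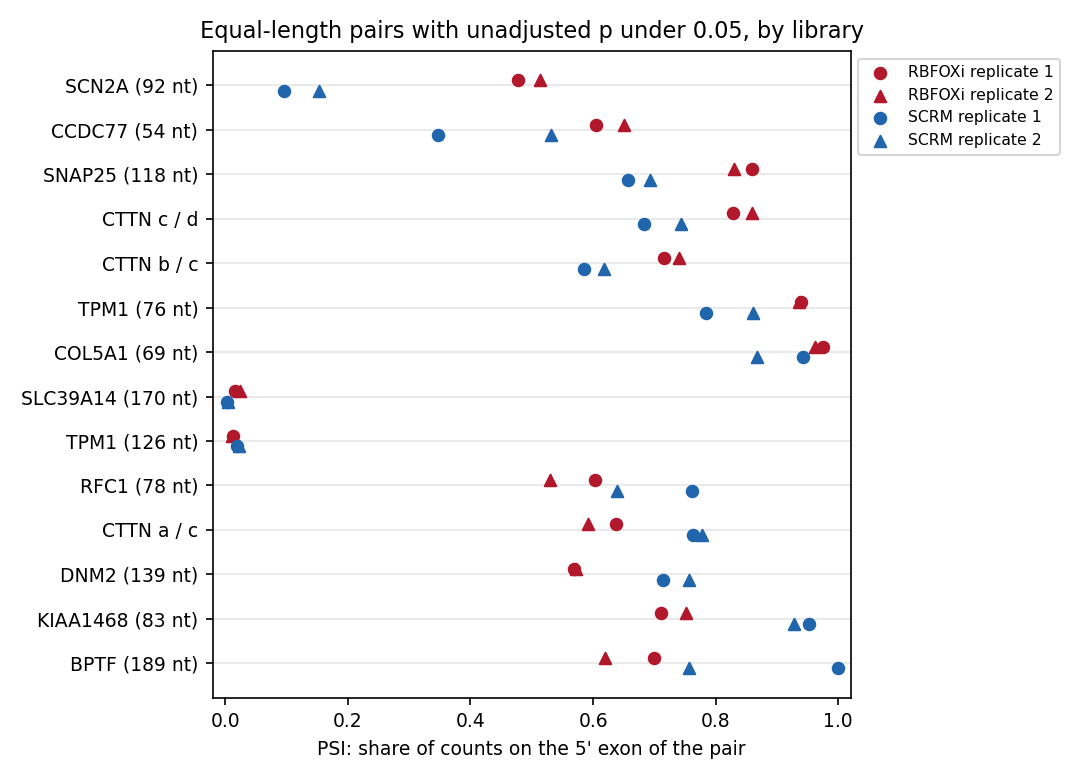
PSI of each library (x axis, share of counts on the 5′ exon) for the 14 pairs with an unadjusted p under 0.05 in limma (y axis, ordered by delta PSI), with red for RBFOXi, blue for SCRM, circles for replicate 1 and triangles for replicate 2. In all 14 pairs the red and blue points do not overlap, and the gap is widest for SCN2A.

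SCN2A, which codes for a voltage-gated sodium channel, showed the largest difference. Its exons of 92 nt, the neonatal exon first and the adult exon second, had 78.3% identity. The neonatal 5′ exon took a PSI of 0.477 and 0.514 in the RBFOXi libraries and 0.0952 and 0.153 in the SCRM libraries. Both RBFOXi libraries were far above both SCRM libraries. Delta PSI was 0.371, and the log2 change was 2.77 ± 0.55 (SE, n = 2 and 2), with an unadjusted p of 0.000661 and an adjusted p of 0.541 in limma. The pair rested on few counts, 44 and 37 in the RBFOXi libraries and 63 and 137 in the SCRM libraries. The exact 95% binomial intervals, which cover counting error only, ran from 0.325 to 0.681 over the RBFOXi libraries and from 0.0358 to 0.225 over the SCRM libraries. Leaving out any 1 library kept delta PSI between 0.342 and 0.40. SCN8A, a relative with exons of the same length and 79.3% identity, fell under the count filter. Its PSI was 0.409 and 0.353 in RBFOXi on 22 and 17 counts, 1 in SCRM replicate 1 on 2 counts and 0.641 in SCRM replicate 2 on 64 counts.

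SNAP25 had more of its early form in RBFOXi. The 5′ exon took 0.859 and 0.829 in RBFOXi and 0.657 and 0.693 in SCRM, on 245 to 720 counts per library. The groups did not overlap, and the gap between them was wider than the spread within either. Delta PSI was 0.169, with a log2 change of 1.38 ± 0.26 (SE), an unadjusted p of 0.000508 and an adjusted p of 0.459 in limma. The skipped exon table gives the junction reads alone, of which the 5′ exon had a share of 0.897 over the RBFOXi libraries and 0.749 over the SCRM libraries. The junction past the 3′ exon, which only RNA with the 5′ exon can give, had 173 and 211 counts in RBFOXi and 74 and 239 in SCRM. The junction past the 5′ exon had 11 and 33 in RBFOXi and 22 and 83 in SCRM. The junction past both exons had 0 to 2 counts in a library, so RNA that skipped both was rare.

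TPM1 had the smallest p. Its 76 nt 5′ exon took 0.940 and 0.935 in RBFOXi and 0.785 and 0.861 in SCRM, on at least 2557 counts per library. Delta PSI was 0.115, the log2 change was 1.66 ± 0.25 (SE), the unadjusted p was 8.96e-05 and the adjusted p 0.235 in limma. SCRM replicate 1 had the lowest value, and without it delta PSI was 0.0767. The second pair of TPM1, of 126 nt near the start of the gene, is nearly always on its 3′ exon, with a PSI of 0.0125 and 0.0118 in RBFOXi and 0.0188 and 0.0221 in SCRM. Its delta PSI of -0.00828 was small, with an unadjusted p of 0.00681 and an adjusted p of 1 in limma. The paralogs have matching exons that are also 76 nt long. TPM2 had 0.592 and 0.583 in RBFOXi and 0.591 and 0.695 in SCRM, and its delta PSI was -0.0557, or -0.108 without SCRM replicate 1. TPM3 stayed between 0.996 and 0.998 in every library.

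DNM2 had more of its 3′ exon in RBFOXi. The PSI was 0.569 and 0.573 in RBFOXi and 0.714 and 0.757 in SCRM, on 1890 to 3575 counts per library. The RBFOXi libraries were alike, and both lay below the SCRM libraries. Delta PSI was -0.164, the log2 change was -1.06 ± 0.18 (SE), the unadjusted p was 0.000174 and the adjusted p 0.304 in limma. Of the 259 pairs only DNM2 passed the call rule once the library medians were set equal, with an adjusted p of 0.0354 in limma. That setting was chosen after seeing the data, and it gave 5 calls over all 26176 tested events, against 0 before. Without SCRM replicate 1 delta PSI was -0.186. Its paralog DNM1, with exons of the same 139 nt, had 0.966 and 0.930 in RBFOXi and 0.987 and 0.952 in SCRM, so the groups overlapped. Its delta PSI was -0.0214, and -0.00375 without SCRM replicate 1.

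KIAA1468 used its 5′ exon nearly always in SCRM and less in RBFOXi. The PSI was 0.951 and 0.927 in SCRM and 0.710 and 0.752 in RBFOXi, on 103 to 234 counts per library. No value of one group reached the other. Delta PSI was -0.209 and the log2 change -2.47 ± 0.43 (SE), with an unadjusted p of 0.000278 and an adjusted p of 0.335 in limma. Leaving out any library kept delta PSI between -0.229 and -0.188.

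CTTN gave 4 pairs from a row of 4 exons of 111 nt, called a, b, c and d in their order in the transcript (chr11, with a at 70263119 to 70263229, b at 70265852 to 70265962, c at 70266506 to 70266616 and d at 70267576 to 70267686, GRCh37, plus strand). They are joined in annotated transcripts, and the junctions that would make a and b, a and c, or b and c alternatives had at most 63 counts over the 4 libraries, against 15782 to 33656 counts of these pairs. The pair of a and c gave a PSI of 0.638 and 0.592 in RBFOXi and 0.763 and 0.778 in SCRM (delta PSI -0.155, adjusted p 0.256 in limma). The pair of b and c gave 0.716 and 0.741 in RBFOXi and 0.585 and 0.618 in SCRM (delta PSI 0.127, adjusted p 0.541). For c and d the values were 0.828 and 0.859 in RBFOXi and 0.683 and 0.743 in SCRM (delta PSI 0.131, adjusted p 0.335). The pair of a and b did not separate, with 0.319 and 0.310 against 0.305 and 0.332. Exon d taken alone was apart between the groups. Its skipped exon event gave a PSI, with counts divided by effective length, of 0.469 and 0.374 in RBFOXi and 0.799 and 0.767 in SCRM. The junction from c past d had 1269 and 1863 counts in RBFOXi and 324 and 620 in SCRM. This junction counts for c in the pair of a and c, whose far flank is the exon after d, and in the pair of c and d. In the pair of b and c, whose far flank is d, the junction from c to d counts for c instead. All 3 pairs contain exon c, so they are not separate measurements, and the counts on exon bodies could not be split from those on junctions. When counts were summed over all 4 events of the pair of b and c, delta PSI was 0.0461.

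**Figure D3:**
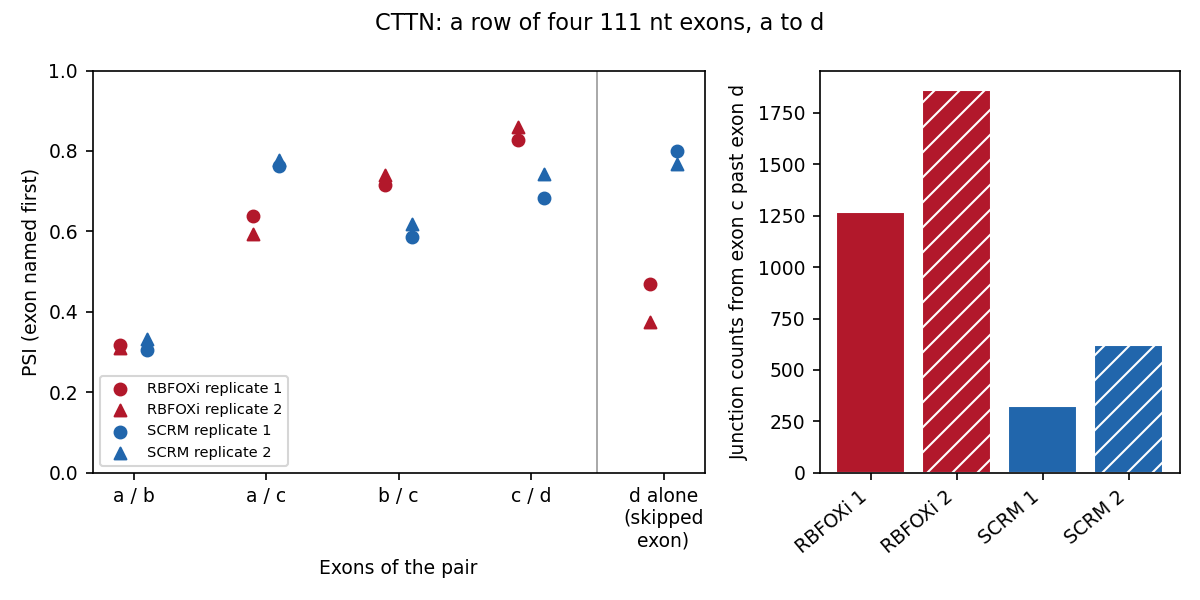
CTTN in the 4 libraries. The left plot gives the PSI of the exon named first for the 4 equal-length pairs of exons a to d and, at the right, of exon d as a skipped exon; the right plot gives the counts of the junction from c past d, with red for RBFOXi and blue for SCRM. Exon d had a PSI of 0.374 and 0.469 in RBFOXi and 0.767 and 0.799 in SCRM.

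The other pairs with an unadjusted p under 0.05 were smaller in effect or in depth. COL5A1, a fibrillar collagen, had a PSI of 0.975 and 0.962 in RBFOXi and 0.943 and 0.868 in SCRM, a delta PSI of 0.0633 with an adjusted p of 1 in limma. SCRM replicate 2 was the lowest, and without it delta PSI was 0.0261. Without SCRM replicate 1, which leaves SCRM replicate 2 alone in its group, it was 0.101. SLC39A14, a zinc and manganese transporter, used its 5′ exon rarely, at 0.0166 and 0.0243 in RBFOXi and 0.00358 and 0.00483 in SCRM, and its adjusted p was 0.516. BPTF, CCDC77 and RFC1 rested on 12, 49 and 42 counts in their thinnest library. In each of these 3, SCRM replicate 1 lay farthest from the RBFOXi libraries, with a PSI of 1 for BPTF, 0.347 for CCDC77 and 0.762 for RFC1. Without it delta PSI was -0.0977 for BPTF (-0.219 with it), 0.0961 for CCDC77 (0.188 with it) and -0.0721 for RFC1 (-0.134 with it).

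**Figure D4:**
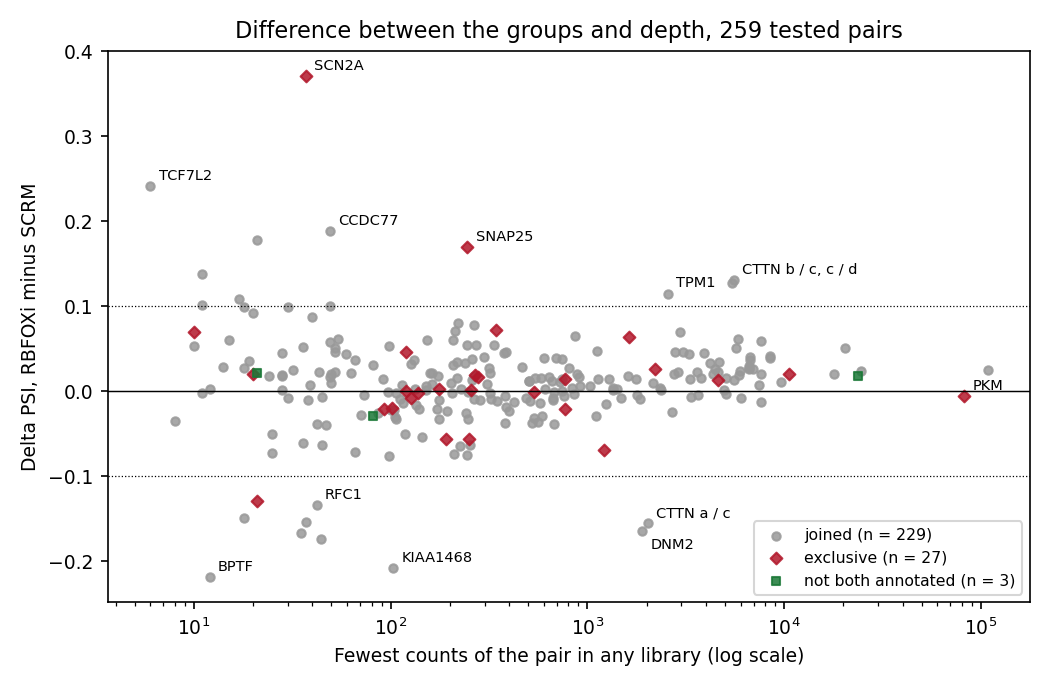
Delta PSI (y axis, RBFOXi minus SCRM) against the fewest counts a pair had in any library (x axis, log scale) for the 259 tested pairs, with colour and shape for the annotation class and dotted lines at 0.1 and -0.1. Pairs with few counts scatter most, and past 50 counts 7 of 209 pairs lie at or outside the dotted lines.

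The pairs named for the largest separated differences with at least 50 counts in every library add smaller shifts, and SCRM replicate 1 sets part of several. Separated pairs of this depth numbered 51 of 209 (24.4%), the same share as over all tested events. PSI was lower in RBFOXi, after KIAA1468, DNM2 and the CTTN pair of a and c, for ANKRD29 (delta PSI -0.0764) and LARP4 (-0.0755). It was also lower for NLRC5 (-0.0745), UBXN8 (-0.0628) and the 97 nt pair of the calcium channel gene CACNA1A (-0.0557). It was higher, after SNAP25, 2 CTTN pairs and TPM1, for ERAP2, an aminopeptidase of antigen processing (0.0800), SAP130 (0.0783), RAB6A (0.0716) and ARMC8 (0.0705). All 9 of these pairs had an adjusted p of 1 in limma. RAB6A took 0.633 and 0.651 in RBFOXi and 0.535 and 0.606 in SCRM, and without SCRM replicate 1 its delta PSI was 0.0363. For SAP130 that value was 0.0180, for ERAP2 0.0379 and for LARP4 -0.0309. ANKRD29 and ARMC8 are joined pairs with few counts that mark their exons as alternatives. The junctions past the 5′ and the 3′ exon had 1 and 2 counts for ANKRD29, against 476 counts of the pair. For ARMC8 they had 10 and 4, against 1041. Other ANKRD29 pairs, which share these exons, had a delta PSI of -0.0508, -0.0260 and 0.0101.

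The textbook list of mutually exclusive exons held 27 of the 281 pairs, of which 22 were tested. Of these 5 had an unadjusted p under 0.05 (SCN2A, SNAP25, DNM2 and both pairs of TPM1), and in 11 the groups did not overlap. These are 22.7% and 50% of the 22, against 1.51% and 24.4% of all tested events. The list is of genes already known for such swaps, so it also takes in other pairs of these genes, and 2 of its 5 pairs are in TPM1. Like the other lists, it was chosen with earlier results of these data known. These shares are therefore a description and not separate support. The median size of delta PSI was 0.0252, against 0.0192 over all tested events. Several of the best known swaps had close values in both groups. PKM, with 406202 counts, gave 0.0605 and 0.0628 in RBFOXi and 0.0708 and 0.0634 in SCRM, so the cells made chiefly the form of proliferating cells in both groups. Its groups did not overlap, but delta PSI was -0.00547, with an unadjusted p of 0.466 in limma, and -0.00177 without SCRM replicate 1. CALU had 0.680 and 0.661 in RBFOXi and 0.649 and 0.652 in SCRM, a delta PSI of 0.0202. MAPK8 and MAPK9 used the 5′ exon in 0.00906 to 0.0318 of the counts of any library. MAPK14, the p38 alpha kinase, had 0.709 and 0.722 against 0.693 and 0.777, a delta PSI of -0.0195, or -0.0613 without SCRM replicate 1. P4HA1 had 0.388 and 0.357 in RBFOXi and 0.518 and 0.365 in SCRM, and its delta PSI of -0.0689 turned to 0.00800 without SCRM replicate 1. U2AF1 had 0.218 and 0.245 in RBFOXi and 0.158 and 0.259 in SCRM, so SCRM alone spanned both RBFOXi values. Its delta PSI of 0.0227 turned to -0.0278 without SCRM replicate 1. MAPK10, a neural kinase, had a delta PSI of -0.129 on 21 to 44 counts. MEF2A, the 113 nt pair of CACNA1A and the 2 tested pairs of CACNA1C had a delta PSI between -0.0351 and 0.0462, and between -0.0151 and 0.0718 without SCRM replicate 1. The 113 nt pair of CACNA1A entered the list through its gene. All 17 annotated transcripts with either exon hold both. The junctions past its 5′ and its 3′ exon had 6 and 1 counts, against 1947 counts of the pair.

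The matrix list held 29 pairs, 19 of them from TNC, and 28 were tested. One pair, COL5A1, had an unadjusted p under 0.05, and 5 were separated. These are 3.57% and 17.9% of the 28, against 1.51% and 24.4% of all tested events. The median size of delta PSI was 0.0257. In TNC, delta PSI was above 0 in 18 of 19 pairs, from -0.0128 to 0.0693. SCRM replicate 1 had the lowest PSI of the 4 libraries in 18 of the 19. It also had the fewest TNC counts, 2970 to 9681 per pair against 8580 to 40206 in the other libraries. Without it the median of the 19 was -0.0125, and 6 were above 0. The pairs of TNC share 7 exons, so they are few independent measurements. The cytoskeleton list held 6 tested pairs, among them those of TPM1, TPM2 and TPM3, with 2 at an unadjusted p under 0.05, both in TPM1. The RNA processing list held HNRNPH1 and U2AF1 and the list of motors and nuclear transport held KIF2C, with none under 0.05; adjusted over all events, no pair of any list passed.

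Pairs whose exons are nearly identical need care, since reads were kept only when they aligned to a single place. At least 90% identity was found in 12 pairs, among them IFI16 (100%), FAM115C (99.4%), NBPF8 (98.3% and 99.1%), SP140 (96.3%), HNRNPH1 (95.6%) and CD276 (95.3%). Where the counts of these pairs fell, on exon bodies or on junctions, was not examined, and a PSI of such a pair is uncertain. Of the 15 tested pairs most alike in sequence, SCN2A, SNAP25 and ZNF587 had a delta PSI above 0.06 in size, and ZNF587 rested on as few as 10 counts. HNRNPH1, with 0.676 in both RBFOXi libraries and 0.633 and 0.693 in SCRM, did not separate, and its delta PSI of 0.0132 turned to -0.0172 without SCRM replicate 1. CENPE, a kinetochore motor, had 0.512 and 0.457 against 0.50 and 0.473.

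UGCAUG was then located in the introns beside both exons, on the strand of the gene. It lay within 300 nt of an exon in 100 of the 281 pairs (35.6%), against 28.4% of the 21323 pairs of unequal length. Among the tested pairs it lay before the 5′ exon in 43, after it in 23, before the 3′ exon in 28 and after the 3′ exon in 27. Delta PSI was above 0 in 32 of the 43 pairs with the motif before the 5′ exon (median 0.0201) and in 20 of the 27 with it after the 3′ exon (median 0.0208). It was above 0 in 12 of the 23 with the motif after the 5′ exon (median 0.00254), in 16 of the 28 with it before the 3′ exon (median 0.0197) and in 103 of the 167 with none (median 0.0109). Over all tested events the same medians lay between 0.00843 and 0.0106 for the 4 places. There, delta PSI was above 0 in 1455 of 2135 events with the motif before the 5′ exon and 1470 of 2248 with it after. For the 3′ exon the counts were 1490 of 2280 before and 1476 of 2168 after. With no motif it was above 0 in 12578 of 18639, so most events were higher in RBFOXi whatever the place. The 14 TNC pairs and the 4 CTTN pairs with the motif repeat the same introns, and the shift of SCRM replicate 1 is in all of these medians.

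Among the 14 pairs with an unadjusted p under 0.05, 8 had UGCAUG within 300 nt, of which 3 are CTTN pairs that share introns. Over the tested pairs the share was 35.5%, and over all tested events 28.8%. The motif lay within 300 nt after the 5′ exon in 0 of the 14 pairs, a place where 8.88% of tested pairs and 8.59% of all tested events had it. The stretches between motif and exon are printed from GRCh37 for the 5 pairs outside CTTN, on the strand of the gene and 5′ to 3′, with TGCATG, the DNA letters of the motif, in capitals. Distances count the intron base next to the exon as 1. In TPM1 and COL5A1, whose 5′ exon was higher in RBFOXi, the motif came before that exon, with its nearest base at 59 and 6.
TPM1, before the 5′ exon, chr15:63353323-63353396, plus strand: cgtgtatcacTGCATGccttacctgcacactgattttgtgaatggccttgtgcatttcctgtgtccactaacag
COL5A1, before the 5′ exon, chr9:137721801-137721821, plus strand: acctccccgcTGCATGtttag

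COL5A1 also had it after the 3′ exon, at 67, and SCN2A had it only there, at 217.
COL5A1, after the 3′ exon, chr9:137722023-137722104, plus strand: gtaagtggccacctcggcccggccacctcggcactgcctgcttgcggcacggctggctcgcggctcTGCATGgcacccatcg
SCN2A, after the 3′ exon, chr2:166165954-166166185, plus strand: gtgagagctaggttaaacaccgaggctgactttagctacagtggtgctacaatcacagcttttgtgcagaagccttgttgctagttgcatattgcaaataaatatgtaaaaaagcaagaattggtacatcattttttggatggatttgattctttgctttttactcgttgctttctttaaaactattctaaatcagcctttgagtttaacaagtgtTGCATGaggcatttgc

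In DNM2 and KIAA1468, whose 3′ exon was higher in RBFOXi, the motif came before that 3′ exon, at 114 and 16.
DNM2, before the 3′ exon, chr19:10907927-10908055, plus strand: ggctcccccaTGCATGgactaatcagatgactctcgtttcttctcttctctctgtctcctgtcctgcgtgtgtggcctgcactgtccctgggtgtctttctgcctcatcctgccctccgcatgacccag
KIAA1468, before the 3′ exon, chr18:59947562-59947592, plus strand: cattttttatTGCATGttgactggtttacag

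SNAP25 had no UGCAUG within 300 nt of either exon, the nearest being at 666 after the 3′ exon, and CCDC77, RFC1, BPTF, SLC39A14 and the 126 nt pair of TPM1 had none within that distance. In CTTN the motif stood 4 nt before exon c and 53 nt before exon b, while exon d had none within 300 nt and the nearest at 794 after it. Of the 9 further pairs named for large separated differences, 3 had the motif within 300 nt. RAB6A and ARMC8, higher in RBFOXi, had it before the 5′ exon at 116 and 100, and RAB6A also after the 3′ exon at 53. ANKRD29, lower in RBFOXi, had it before the 5′ exon at 153 and before the 3′ exon at 8. A match of these letters is a description of the sequence and not evidence that RBFOX1/2 bind there.

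**Figure D5:**
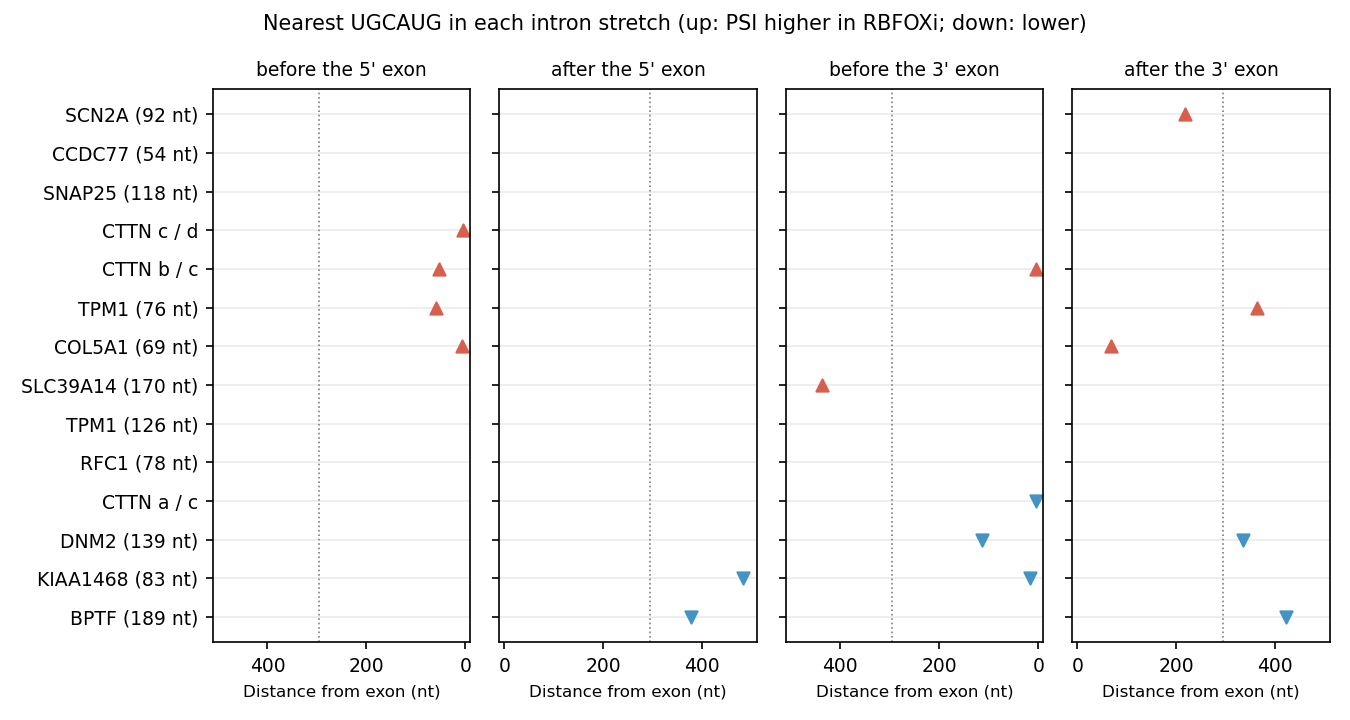
Distance in nt from the exon (x axis) of the nearest UGCAUG within 500 nt, in the 4 intron stretches beside the exons, for the 14 pairs with an unadjusted p under 0.05 (y axis). Triangles point up where PSI was higher in RBFOXi and down where it was lower, the dotted line marks the limit of the 300 nt window, and the stretch after the 5′ exon holds no motif inside that line.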

How the data were processed

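Splicing event tables of 4 RNA-seq libraries (2 RBFOXi, 2 SCRM) were used as deposited. Per the labels and the paper's methods, the authors kept unique alignments to hg19 (STAR 2.4.2a), and rMATS with UCSC known genes produced the events. The deposited cells hold whole-number counts of both replicates joined by a comma, a form classed here as other, beside effective lengths. The authors' p-values, FDR and inclusion levels were left out. No column lacked a group.

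PSI is the count on the 5′ exon over both counts. All 384 equal-length events had equal effective lengths, so no length correction enters. The table summed to 62849274 to 77342669 counts per library, with reads counted in each event they match, and intervals cover counting error only. Log2 odds (pseudocount 0.5) of all events past the filter (5 counts per library, mean 20, 4 per form) were fitted by limma 3.58.1 (R 4.3.3), using condition alone and a variance trend on event information, with Benjamini-Hochberg adjustment. The fit was also run on simulated counts with equal noise in every library, which hold no shifted library like SCRM replicate 1. Alternatives changed the pseudocount, filter, test, centring, replicate block, event choice and libraries.

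Sequences came from GRCh37, which is hg19, and transcripts from GENCODE 44 lifted to it. The 49 named pairs were tested pairs of a textbook list, the 8 largest falls and 8 largest rises among separated pairs with 50 counts in every library, the 10 smallest p-values and the 15 most alike pairs. Some of these pairs and sequences are not reported here. BPTF, CCDC77, RFC1, the pairs outside the filter and the exclusive pairs of the closing observations were named after their values were seen. The members and lists were chosen with earlier results of these data known. Scripts ran in Python 3.11.15 with pandas 2.3.3, while scipy 1.17.1 gave the intervals.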

Additional observations from a re-analysis of the deposited data

How the results depend on the processing

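Of the 259 tested pairs, 0 were called, and 0 were called with a pseudocount of 0.1 or 1, either other count filter, no minimum of delta PSI, a quasi-binomial F test, every event of each pair or 1 event per pair over the whole table. With centred log2 odds, an alternative chosen after seeing the data as was the quasi-binomial F test, 1 was called (DNM2). The same fit called 5 of all 26176 tested events. Leaving out any library raised the number of calls, in the pairs and over all tested events alike. Those fits are read here by the size of delta PSI only. The pairs with an unadjusted p under 0.05, 14 with all libraries, numbered 13 to 87, with 31 without SCRM replicate 1 and 87 without SCRM replicate 2. The median size of delta PSI ranged from 0.0217 to 0.0464 without 1 library. Every fit without a library leaves 1 library alone in its group, and that library is assumed to vary like the others. With the replicate block 9 pairs were called (BPTF, DNM2, KIAA1468, SCN2A, SNAP25, TPM1 and 3 of CTTN) and 21 had an unadjusted p under 0.05; over the table the block moved the calls from 0 to 77. Deviations of same-numbered libraries correlated at 0.0881 over 26176 events with 2 pairs, so the numbers were not taken as a pairing. The titles of replicate 1 of both groups end in D_R and those of replicate 2 in P, and what these letters mark is not given in the sources used here. Without overlap there were 65 of 259 pairs, 69 of 277 and 62 of 239 under the other filters, 65 with plain shares, 97 of 358 events when every event of each pair was kept and 81 of 259 pairs (31.3%) with centred log2 odds, against 27.4% of all tested events. Centring changed the share of pairs with a higher log2 odds in RBFOXi from 62.5% to 52.1%. UGCAUG lay beside an exon of 26.3% of pairs within 200 nt and 50.2% within 500 nt, against 20.7% and 40.3% of other pairs. For the 49 named pairs, summing over all events of a pair moved 2 values by more than 1 SD. The planned edgeR test was not run, because the joined cells could not be declared as counts.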

Other observations

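The pairs that failed the count filter hold several near-complete choices. PHKB, a subunit of phosphorylase kinase, put 1 count on its 5′ exon in RBFOXi replicate 2 and 0 in the other libraries, out of 445 to 875 counts per library. The 104 nt pair of CACNA1C, a calcium channel gene, likewise had a PSI of 0 in 3 libraries and 0.00352 in RBFOXi replicate 2, on 32 to 416 counts. UBR2, a ubiquitin ligase, had 0.117 and 0.0978 in RBFOXi, 0 in SCRM replicate 1 on 4 counts and 0.0992 in SCRM replicate 2 on 131. SCN3A and SCN9A, sodium channel genes with 77.2% and 76.1% identity, had at most 12 counts in a library.

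Further exclusive pairs differed in how strongly they chose 1 exon, and in none of the 5 named here did the unadjusted p pass 0.05. GALNT7, a glycosyltransferase whose exons have 69.9% identity, had a PSI of 0.317 and 0.275 in RBFOXi and 0.333 and 0.252 in SCRM, so the libraries of a group differed by more than the group means. EYA4, a transcriptional coactivator, had 0.834 and 0.878 in RBFOXi and 0.850 and 0.878 in SCRM. STX3, a syntaxin, and ACSL1, a fatty acid ligase, used the 5′ exon at a mean of 0.995 and 0.975 in RBFOXi and 0.993 and 0.977 in SCRM. CAMK2D, a calcium-dependent kinase, had 0.997 and 0.955 in RBFOXi and 1 and 0.994 in SCRM.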
